A study of Drosophila melanogaster with 13 samples.

Results

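The genes described here are 74 Drosophila melanogaster genes known on the array only by a CG number. Their testis transcripts were lower in aly mutants but fell by less than 0.75 log2 units, or rose, in sa and magn mutants. The genes were chosen from plain means of the log2 values. The WT mean had to be at least 5, aly minus WT at most -1.5, and sa minus WT and magn minus WT both above -0.75. No upper limit was set, and sa minus WT reached 1.82 and magn minus WT 2.88. The array measured 11982 genes, of which 5209 carry a bare CG number, and 3085 of these had a WT mean of at least 5. Of the 1209 of them that were lower in aly by 1.5 or more, 74 (6.12%) met the limits in sa and magn. These values chose the genes, so the levels in aly, sa and magn against WT are given as a description, with no test or call.

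In the fly testis, spermatocytes switch on a large programme of genes before they divide by meiosis and shape sperm. Meiotic arrest genes are needed for that programme. Always early (aly) belongs to the testis-specific meiotic arrest complex (tMAC), while spermatocyte arrest (sa) codes for one of the testis TAFs, testis forms of the factors that bind TBP. The aly class is known to be needed for transcripts of meiotic cell cycle regulators as well as spermatid genes, whereas the sa class is known mainly for spermatid genes. Mutations of magellan (magn) affect the polyubiquitin gene Ubi-p63E, which supplies ubiquitin.

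RNA from whole adult testes was measured on 13 Affymetrix 3' expression arrays. The groups were aly[2]/aly[5p] (3 arrays), sa[1]/sa[2] (3 arrays), magn[12c]/magn[23b] (2 arrays), magn[12c]/magn[12c];pSC2 (2 arrays) and the strain red[1], e[1], which the labels call WT (3 arrays). All males were taken 0 to 1 day after eclosion from cultures kept at 25 °C, and the dissected testes lacked seminal vesicles and accessory glands. The labels do not say what pSC2 is or whether the replicates came from separate crosses, so p-values measure the spread between these arrays. The red and e markers of the WT strain go with the genotype and cannot be told apart from it in any comparison with WT.

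The values are normalised log2 probe set levels with a floor of 2.10, and a value at or below 4 is treated here as background. Between 8822 and 9759 of 18952 probe sets lay above 4 in an array, and the correlation across probe sets between arrays of 1 genotype ran from 0.983 to 0.996. Ubi-p63E read 14.76 in WT and 4.22 in magn, and sa read 11.00 in WT and 6.08 in sa mutants, whereas the aly transcript was not lower in aly mutants (6.17 in WT, 7.29 in aly). Markers of the labelled tissue were present, since the summed level of 15 spermatid genes was 18.09 to 18.26 in WT. Markers of removed tissue were present too: of 18 accessory gland and male duct genes on the array, none was at or below 4 in all arrays of any group. As a sign of RNA quality, the 3' minus 5' difference of the actin 5C control probes was 1.23 to 1.70 in WT and 2.27 to 2.73 in aly. It was 1.72 and 1.82 in magn[12c]/magn[23b]. In magn[12c]/magn[12c];pSC2 it was 3.21 in replicate 1, above the other magn arrays, and 1.86 in replicate 2. In sa it was 2.75, 2.44 and 4.76, and replicate 3 of sa stood apart. WT and aly overlapped in the other control probes. The difference for eIF-4a was 2.27 to 2.79 in WT and 2.55 to 2.71 in aly. For GAPDH it was 1.08 to 1.29 in WT and 1.22 to 1.52 in aly. Replicate 3 of sa was the highest array in both, at 3.75 and 2.15.

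The 74 genes filled a wide range of levels in WT. Their WT means ran from 5.04 to 13.72 with a median of 8.65, against a median of 9.70 for all 3085 CG genes with a WT mean of at least 5. The median of the 74 genes was 8.66, 8.63 and 8.73 in the WT arrays and 4.95, 4.86 and 4.91 in the aly arrays. It was 9.15, 9.39 and 9.05 in sa, 9.43 and 9.82 in magn[12c]/magn[23b], and 9.27 and 9.33 in magn[12c]/magn[12c];pSC2. In aly, 26 to 29 of the genes lay at or below 4 in an array. In the 10 other arrays this was true of 1 gene at most.

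**Figure D1:**
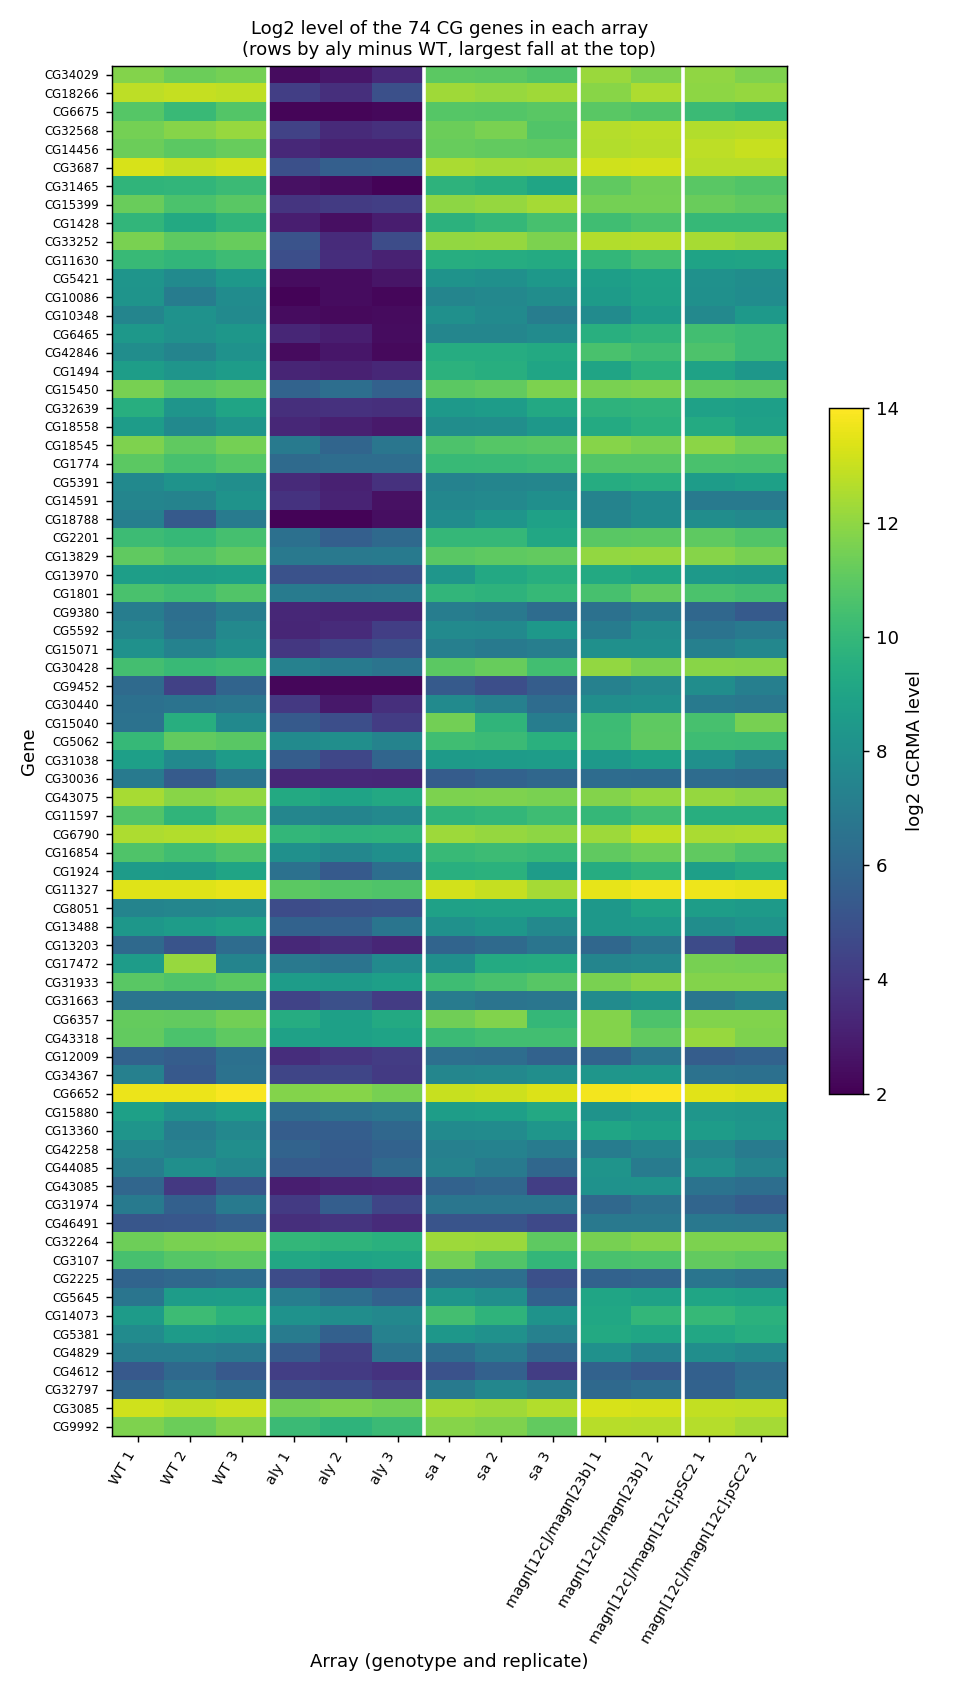
Log2 level of each of the 74 genes (rows) in each of the 13 arrays (columns), as colour. The aly columns are dark for most rows, and the sa and magn columns resemble the WT columns, as the choice of genes fixed.

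The fall in aly ranged from a moderate reduction to background. The change was -6 or lower for 11 genes, between -4 and -6 for 16, between -2 and -4 for 29 and between -1.5 and -2 for 18, with a median of -3.02. For 23 genes all 3 aly arrays lay at or below 4, and the reduction is then a bound of at least 2.06-fold to at least 185-fold. For the other 51 at least 1 aly array still read above 4, and 11 genes kept an aly mean above 8, so "lost" describes only some of them. The 23 had a median WT level of 7.80 and the 51 a median of 10.24. The arrays of WT and aly did not overlap for 72 of the 74, against 28.8% of tested genes lower without overlap. The exceptions were CG17472 and CG5645. The choice of genes fixed this count, and nothing is read from it. In bulk testes fewer cells of a type and less RNA per cell cannot be told apart. Marker lists of other cells were read in the linear model fitted to all genes, where a call needed an adjusted p under 0.05 (limma, Benjamini-Hochberg) and at least 2-fold. In aly against WT 24.3% of the 8719 tested genes were called lower and 45.5% higher. Of 18 accessory gland and male duct genes 11 were called lower in aly and none higher. Of 12 sheath muscle genes 4 were lower and none higher, and of 4 cyst and hub genes 1 was lower. Of 5 fat body genes 4 were lower and 1 (Apoltp) higher, and of 8 hemocyte genes 1 was lower and 4 higher. The summed level of the 8 fat body genes on the array ran in WT from 11.60 to 12.36 and in aly from 7.95 to 8.91. It was 9.03 to 9.89 in sa and 10.76 to 11.81 in magn. Its largest term in WT was apolpp, at 11.37 to 11.93, which read 3.35 to 4.75 in aly (change -7.65). In aly Lsp2, Fbp1 and Fbp2 changed by -1.64, -1.68 and -1.60 and Apoltp by 1.18. Yp1, Yp2 and Yp3 were at or below 4 in all arrays. The part of these cells in the levels of the 74 genes was not tested.

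The 8 largest falls came from genes with WT levels near 10 to 13. CG34029 read 11.76, 11.31 and 11.51 in WT and 2.39, 2.71 and 3.39 in aly, at least 185-fold lower. It read 11.00, 10.95 and 10.71 in sa and 11.67 to 12.20 in the 4 magn arrays. The gene was therefore at background in every aly array and high in each of the other 10. CG18266 read 12.79, 12.94 and 12.84 in WT against 4.22, 3.61 and 4.93 in aly (at least 355-fold lower with values under 4 raised to 4), with 12.14 to 12.30 in sa and 11.85 to 12.54 in magn. CG6675 read 10.86, 10.15 and 10.79 in WT and 2.17, 2.18 and 2.24 in aly, at least 97.0-fold lower, and stood at 10.80 to 10.91 in sa. These aly values are next to the floor.

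CG32568 read 11.51, 11.84 and 12.15 in WT and 4.37, 3.45 and 3.66 in aly, at least 209-fold lower with values under 4 raised to 4. CG14456 read 11.30, 10.97 and 11.21 in WT and 3.38, 3.08 and 3.10 in aly, at least 143-fold lower. CG3687 read 13.25, 12.94 and 13.12 in WT and 4.91, 5.65 and 5.74 in aly (204-fold). All 3 had aly arrays far under their WT arrays, with CG3687 still above background. CG31465 read 9.83, 9.92 and 10.20 in WT and 2.53, 2.39 and 2.10 in aly, at least 63.3-fold lower, and its lowest aly array was at the floor. CG15399 read 11.27, 10.62 and 10.94 in WT and 3.84, 4.06 and 4.22 in aly (at least 115-fold lower in the same way), and its sa arrays were above all WT arrays at 11.96, 12.09 and 12.40.

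The genes with the highest WT levels behaved less uniformly in aly. CG6652 read 13.65, 13.63 and 13.88 in WT and 11.77, 11.82 and 11.52 in aly, 4.04-fold lower. CG11327 read 13.41, 13.40 and 13.54 in WT and 10.97, 10.80 and 10.67 in aly (6.20-fold). CG3085 read 13.13, 12.90 and 13.10 in WT and 11.46, 11.64 and 11.45 in aly (2.88-fold). In all 3 the aly arrays lay under the WT arrays and still above 10. CG6790 was 6.96-fold lower in aly, at 9.94, 9.75 and 9.79 against 12.54, 12.61 and 12.74. CG3687 and CG18266 were the other members of the brightest 6, and both read under 6 in every aly array. A high WT level thus went with small and with large falls.

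Several members have a product named in the RefSeq gene table (assembly Release 6 plus ISO1 MT), which matched all 74 and lists all as protein coding. CG15450, listed as a glycerol-3-phosphate acyltransferase (GPAT) that acts in the synthesis of glycerolipids, read 11.53, 11.00 and 11.16 in WT, 5.80, 6.32 and 5.71 in aly (39.1-fold lower), and 10.96 to 11.62 in sa. CG11597 carries the synonym PP4, a protein phosphatase name, and read 10.73, 9.84 and 10.59 in WT and 7.49, 7.40 and 7.67 in aly (7.30-fold). CG5421, listed as VhaAC45-2, an accessory subunit of the proton pump that acidifies vacuoles, read 8.26, 7.72 and 8.39 in WT and 2.38, 2.40 and 2.68 in aly, at least 17.4-fold lower. Of these, CG5421 was at background in aly and the others were not.

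CG18558 carries the synonym dC1GalT3, a galactosyltransferase of core 1 O-glycans, and read 8.61, 7.68 and 8.26 in WT and 3.34, 3.05 and 2.81 in aly, at least 18.2-fold lower. CG10348, whose synonym PRDM16 is that of a zinc finger factor, read 7.48, 8.12 and 7.76 in WT and 2.38, 2.32 and 2.37 in aly, at least 13.8-fold lower. Both were at background in all aly arrays and above 7 in all WT arrays. For the other members no role is given here.

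Known regulators around aly and sa were read beside the 74 genes, from lists chosen with earlier results known. Against WT, 45.5% of all tested genes were called higher and 24.3% lower in aly, 40.8% and 21.3% in sa, and 29.2% and 14.3% in magn. Of 9 tMAC and partner genes tested, 9 were called higher in aly, 6 higher and 1 (topi) lower in sa, and 6 higher in magn. Of 5 testis TAF genes, 5 were called higher in aly, 3 higher and 1 (sa itself) lower in sa, and 4 higher in magn. Transcripts of these regulators were thus not lower in aly. Of 5 meiotic regulators tested, 3 were called lower in aly, 1 higher and 1 lower in sa, and none in magn. Twine (twe), the meiotic Cdc25 phosphatase, read 7.31 in WT and 5.49 in aly (change -1.82, SE 0.266, adjusted p = 1.89e-05, limma), with 0.00 in sa and -0.23 in magn, and met the limits that chose the 74 genes. Cyclin B (CycB) met them too, with -3.27 in aly, 2.09 in sa and -0.30 in magn. Boule (bol), an RNA-binding protein needed for meiotic entry, fell by 4.52 in aly and by 1.48 in sa (adjusted p = 0.00129, limma), and so did not meet them. Of 15 spermatid genes, 10 were called lower in aly, 11 lower in sa and none lower in magn.

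In sa and magn the 74 genes spread around the WT level. The median of sa minus WT was -0.14, against 0.66 over all tested genes, and that of magn minus WT was 0.28, against 0.38. The mean lay above WT for 29 genes in sa and 52 in magn, for 21 in both and for 14 in neither. The limits fixed the lower end of both ranges.

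CG18788 had the largest difference from WT in sa: 7.16, 5.40 and 6.97 in WT, 2.14, 2.14 and 2.44 in aly, 7.85, 8.27 and 8.86 in sa and 7.46 to 7.89 in magn. Its sa and magn arrays were above all WT arrays. CG42846 read 7.86, 7.42 and 8.13 in WT, 9.44, 9.42 and 9.27 in sa and 10.20 to 10.66 in magn, with 2.34, 2.73 and 2.29 in aly. WT, sa and magn did not overlap in this gene. CG8051 read 7.41, 7.49 and 7.62 in WT, 8.85, 8.94 and 8.90 in sa and 8.42 to 9.01 in magn. CG15040 had the largest mean difference in magn, 2.88, but read 6.55, 9.54 and 7.70 in WT and 11.43, 9.84 and 7.10 in sa, so that its sa arrays overlapped with WT.

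**Figure D2:**
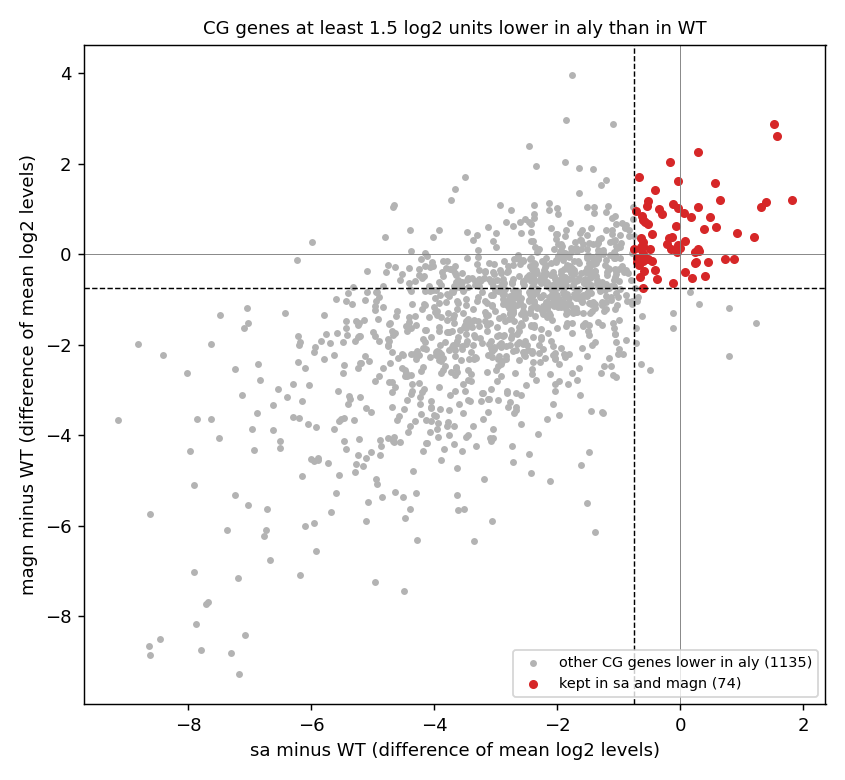
Change against WT on the log2 scale in sa (x axis) and in magn (y axis) for the 1209 CG genes lower by 1.5 or more in aly, with the 74 genes in red and the limits as dashed lines. The 74 lie above -0.75 on both axes, as chosen, and more of them lie above WT in magn (52) than in sa (29).

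The levels in magn and sa were compared with each other to ask whether genes kept in both mutants were kept alike. The limits did not use this difference, but each bounded 1 of its terms, and they removed more genes through sa (391 CG genes missed the sa limit alone) than through magn (15). The comparison is therefore not independent of the choice of genes, the p-values take no account of that choice, and the shares over all tested genes are background only. Of the 74 genes, 19 were called higher in magn than in sa and none lower (limma, adjusted over 8719 genes, at least 2-fold), where 18.6% of all tested genes were higher and 19.2% lower. With magn[12c]/magn[12c];pSC2 alone against sa the calls were 14 higher and 5 lower, with magn[12c]/magn[23b] alone 21 higher and none lower, and with array weights 13 higher and 2 lower. The median difference was 0.51, against -0.21 over all tested genes, with 55 genes above 0 and 19 below. Unadjusted p was under 0.05 for 37, a count with no share over all genes beside it. Adjusted p (limma) was under 0.05 for 33 of the 74 and for 5170 of the 8719 tested genes. All magn arrays were above all sa arrays in 33 genes (23.1% of tested genes), and all below in 4 (35.9%).

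CG6465 read 9.59 and 9.83 in magn[12c]/magn[23b], 10.36 and 10.19 in magn[12c]/magn[12c];pSC2 and 7.49, 7.51 and 7.79 in sa. It was 2.40 higher in magn (SE 0.268, adjusted p = 6.19e-06, limma), and the WT arrays, at 8.07 to 8.41, lay between the 2 mutants. CG9452 read 7.29, 7.65, 7.88 and 7.18 in magn and 5.42, 4.89 and 5.55 in sa, a difference of 2.21 (SE 0.379, adjusted p = 0.000222, limma). Its WT arrays spread from 4.34 to 6.16, and none reached the magn arrays. CG46491 read 6.84, 6.85, 6.80 and 6.75 in magn and 5.13, 5.10 and 4.64 in sa, 1.85 higher in magn (SE 0.226, adjusted p = 1.32e-05, limma). CG14456, at background in aly, read 12.62, 12.71, 12.79 and 12.98 in magn and 11.21, 11.12 and 11.03 in sa (difference 1.66, SE 0.155, adjusted p = 1.28e-06, limma). In each of these genes both magn combinations stood above sa.

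CG43085 read 8.10 and 8.17 in magn[12c]/magn[23b], 6.57 and 6.35 in magn[12c]/magn[12c];pSC2, and 5.76, 6.01 and 4.24 in sa. Its difference of 1.96 (SE 0.571, adjusted p = 0.00922, limma) became 1.41 and was not called without replicate 3 of sa (adjusted p = 0.0599, limma), nor was it called with magn[12c]/magn[12c];pSC2 alone. The other 14 called genes differed by 1.00 to 1.69. They included CG31465 (1.61), CG32568 (1.47), CG18558 (1.23) and CG34029 (1.01), all among the genes described above, and CG42846 (1.04). CG34029 fell under the 2-fold minimum in 5 alternatives (0.91 to 0.97), among them array weights, magn[12c]/magn[12c];pSC2 alone and the fit without sa replicate 3. CG42846 did so in 3 (0.960 to 0.997), each without 1 array (sa replicate 3 or replicate 1 of either magn combination). The difference of CG5645 (1.68, adjusted p = 0.0281, limma) rested on replicate 3 of sa, at 5.66 against 8.28 and 7.91, and was 0.87 without it. Its call was also lost without the filter, with the replicate block, with either magn combination alone and without magn[12c]/magn[23b] replicate 1. In those settings the difference was 1.42 to 1.69 and the adjusted p 0.0529 to 0.0870 (limma). In the opposite direction CG15399 was 0.82 lower in magn (SE 0.194, adjusted p = 0.00257, limma) and CG32797 0.97 lower (SE 0.278, adjusted p = 0.00858, limma), both under the 2-fold minimum.

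Other measures moved with this difference. Without replicate 3 of sa, the array with the highest actin 5C difference, 12 of the 74 were called, 11 higher and 1 lower, and the median was 0.40. Of 15 spermatid genes, 8 were called higher in magn than in sa and none lower, and their summed level was 17.81 to 18.09 in magn and 16.62 to 17.04 in sa. Of 12 sheath muscle genes, 6 were higher and none lower, and none of them was at or below 4 in all arrays of a group. Their summed levels were 13.24 to 13.73 in magn, 12.23 to 12.98 in sa, 11.32 to 12.18 in aly and 13.93 to 14.42 in WT. The largest term of the WT sum was Act87E, at 13.45 to 13.63, which was not called between magn and sa (0.39). Gene by gene, the median of magn minus WT over the 12 was 0.79, with 5 called higher and 2 lower. The part of these measures in the difference between magn and sa was not tested. After each array was centred on 26 ribosomal protein genes, the genes called over the whole array split 2181 higher to 849 lower in place of 1624 to 1671, and 31 of the 74 were called higher. The median over all genes then moved by 0.41.

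**Figure D3:**
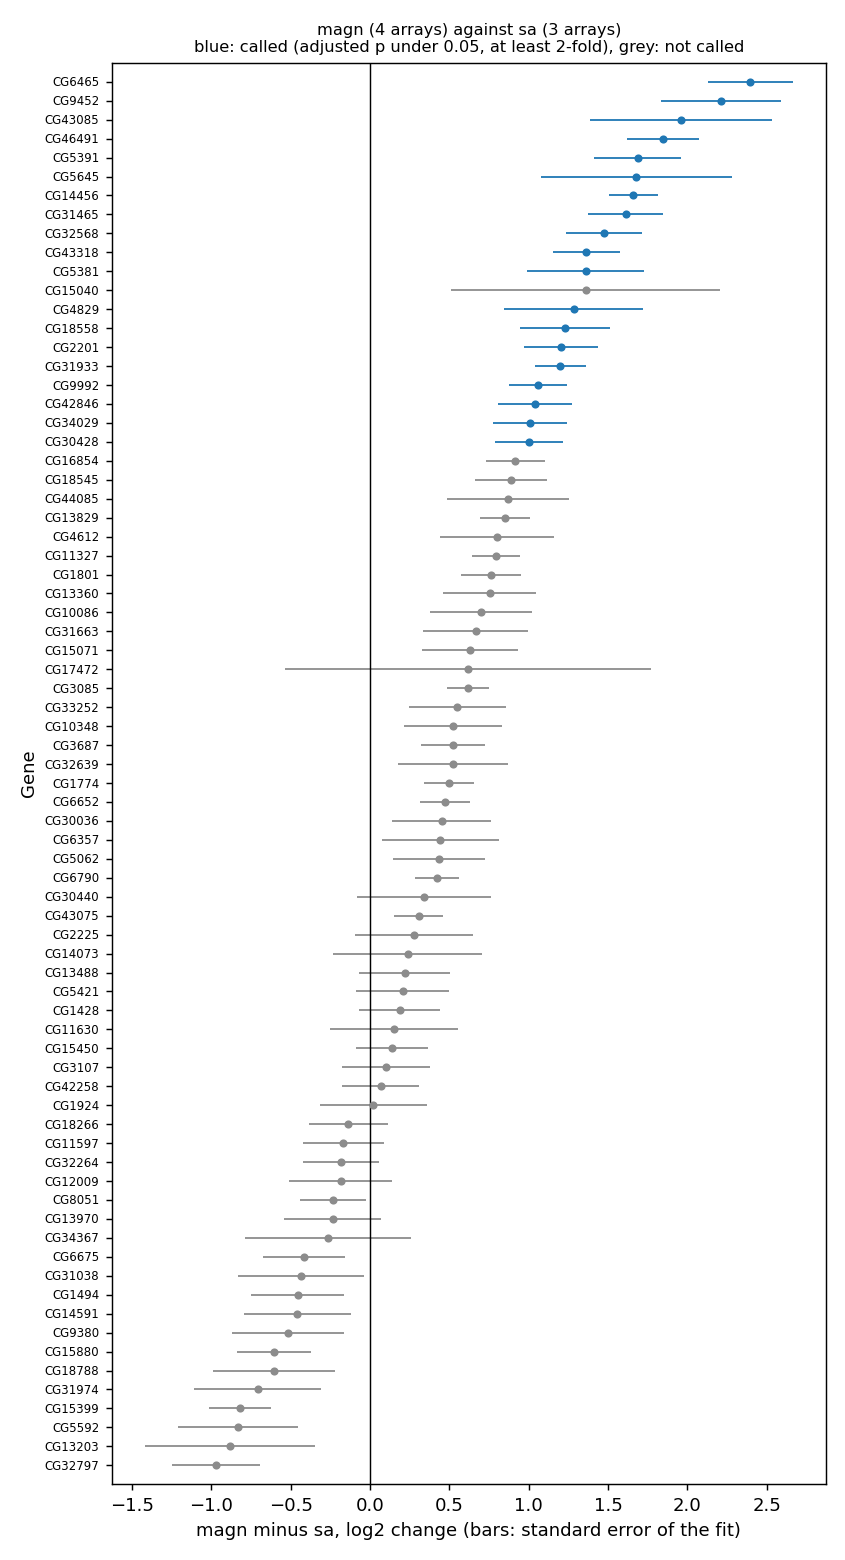
Difference between magn and sa on the log2 scale (x axis) for each of the 74 genes (y axis), with the standard error of the fit as bars and the 19 called genes in blue. All called genes lie to the right of 0, with CG6465 highest at 2.40.

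The magn arrays came from a pair of allele combinations, of which the choice of genes used only the common mean. Between them 4 of the 74 genes were called, 1 higher in magn[12c]/magn[12c];pSC2 (2.14% of tested genes) and 3 lower (7.94%). The median difference was -0.28, against 0.10 over all tested genes, and 53 of 74 genes were below 0. Unadjusted p was under 0.05 for 19, a count with no share over all genes beside it. Adjusted p (limma) was under 0.05 for 5 of the 74 and for 1431 of the 8719 tested genes. The arrays did not overlap for 38 genes that were lower (27.3% of tested genes) and 5 that were higher (35%). With 2 arrays on each side, between 0 and 1 of the 74 genes were called when any 1 magn array was left out. Replicate 1 of magn[12c]/magn[12c];pSC2 had the highest actin 5C difference of the magn arrays (3.21), and its part was not tested.

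CG17472 read 11.53 and 11.48 in magn[12c]/magn[12c];pSC2 and 7.44 and 7.60 in magn[12c]/magn[23b], 3.99 higher (SE 1.07, adjusted p = 0.0232, limma). In WT it read 8.63, 12.16 and 7.39, in aly 6.86, 6.62 and 7.74, and in sa 7.96, 9.35 and 9.37. One WT array was thus high, and the aly arrays overlapped with the other WT arrays. The summed level of the 18 accessory gland and male duct genes was 15.80, 17.99 and 15.06 in the same WT arrays, 14.08, 14.05 and 14.62 in aly and 14.95, 16.06 and 16.34 in sa. It was 14.54 and 14.53 in magn[12c]/magn[23b] and 17.38 and 17.33 in magn[12c]/magn[12c];pSC2. Over the 13 arrays, which share tissue and dissection, CG17472 and this sum had a Pearson's r of 0.985, given as a description. With a difference above 1 as the limit, CG17472 was the only 1 of the 74 that was high in the same arrays as the list. CG15040 and CG14073 shared only the high WT array, at 2.42 and 1.08 above the mean of the other WT arrays. Of the 18 list genes, 14 were called higher in magn[12c]/magn[12c];pSC2 than in magn[12c]/magn[23b], 11 lower in aly than in WT and 1 lower in sa than in WT. Their part in the result of CG17472 was not tested.

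The 3 genes lower in magn[12c]/magn[12c];pSC2 did not follow that list. CG13203 read 4.73 and 3.93 there against 6.0 and 6.73 in magn[12c]/magn[23b] (difference -2.04, SE 0.435, adjusted p = 0.00680, limma), with 6.10, 5.13 and 6.22 in WT and 3.39, 3.63 and 3.27 in aly. The pSC2 combination thus lay between the aly arrays and the WT arrays. CG34367 read 6.54 and 6.42 against 8.33 and 8.35 (difference -1.86, SE 0.460, adjusted p = 0.0154, limma), with 7.22, 5.37 and 6.52 in WT. CG31663 read 6.69 and 7.17 against 7.77 and 8.18 (difference -1.04, SE 0.320, adjusted p = 0.0422, limma), with 6.60, 6.60 and 6.66 in WT. Its adjusted p was 0.0550 with the replicate block and 0.0953 with only the compared groups in the fit (limma), and its call was also lost without aly replicate 1, sa replicate 2 or WT replicate 3. In CG34367 and CG31663 the pSC2 arrays were near the WT level and the other combination above it.

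**Figure D4:**
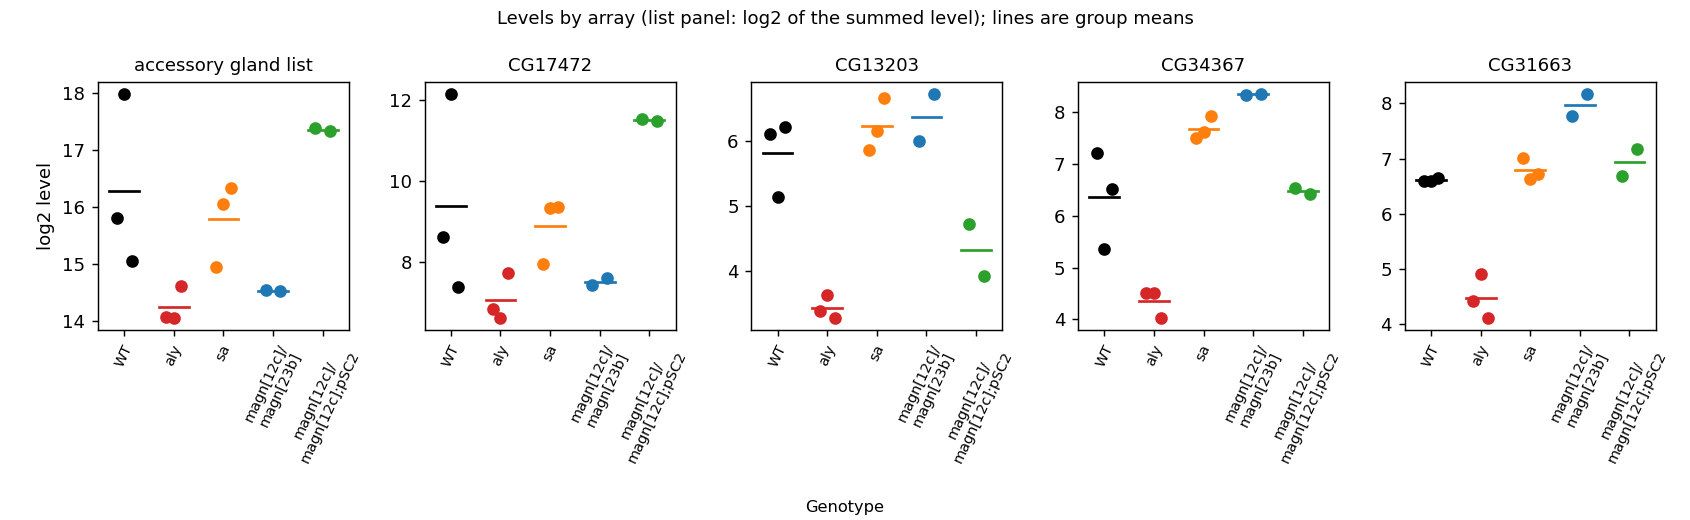
Log2 level by array in each genotype for the summed accessory gland list and for the 4 genes called between the magn combinations, with group means as lines and an axis of its own in each panel. CG17472 is high in WT replicate 2 (12.16) and both pSC2 arrays (11.53 and 11.48), as is the list.

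The 74 genes were set beside the CG genes lower by 1.5 or more in aly and sa with magn above -0.75 (289 genes) and those lower by 1.5 or more in all 3 mutants (449 genes). Their WT level was lower, with a median of 8.65 against 11.87 and 11.56. An aly mean at or below 4 was found for 36.5% of the 74, 54.7% of the 289 and 69.5% of the 449. The median gene span was 2131.5 bases for the 74, against 1595 and 1161.5 bases, and 1725 bases for all CG genes with a WT mean of at least 5. Spans under 2000 bases made up 40.5% of the 74, 64.5% of the 289, 76.5% of the 449 and 58.2% of all, counted over genes with a span in the table. These are descriptions of sets that the levels defined.

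By chromosome, 22 of the 74 genes lay on arm 2L (29.7%, against 20.4% of all CG genes with a WT mean of at least 5), 16 on X (21.6% against 16.6%) and 15 on 2R (20.3% against 19.8%). There were 11 on 3L (14.9% against 18.6%) and 10 on 3R (13.5% against 24.5%). Only CG9380 and CG30428 lay within 10 kb of another member, with CG30428 inside the span of CG9380. CG9380 read 7.08, 6.38 and 7.08 in WT and 3.35, 3.23 and 3.23 in aly, at least 7.20-fold lower. CG30428 read 10.41, 10.12 and 10.26 in WT and 7.28, 6.89 and 6.64 in aly (10-fold), and was 1.00 higher in magn than in sa. That call was lost in 6 alternatives, including the replicate block (0.87), array weights (0.67) and the fit without sa replicate 3 (0.76). Because their spans overlap, signal of these genes may not be fully separate. Of the 11 genes on the arm of aly, CG12009 and CG32264 lay within 1 Mb of it.

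The replicate arrays of the 74 genes agreed within a median SD of 0.30 in WT, 0.25 in aly and 0.30 in sa. It was 0.20 in magn[12c]/magn[23b] and 0.15 in magn[12c]/magn[12c];pSC2. The SD exceeded 1 for CG17472, CG15040 and CG5645 in WT, for CG4829 in aly and for CG15040, CG5645 and CG14073 in sa. It exceeded 1 for no gene within either magn combination. Over the 4 magn arrays, which join both combinations, the median SD was 0.32. There CG17472, CG13203 and CG34367, all called between the combinations, exceeded 1. WT replicate 2 differed from the mean of the other WT arrays by more than 1 in 11 genes, higher in 3 and lower in 8. Without it 56 of the 74 still met the limits. The other probe set of CG42258 ran opposite to the one used, at 4.20 in WT and 7.19 in aly against a change of -1.90, so the direction for CG42258 depends on the probe set. Another 6 genes also had 1 other probe set, each under the WT minimum of 5.

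Genes lay close to each limit on both sides. At the sa limit CG44085 (-0.75) and CG5645 (-0.71) were just inside and CG7841 and CG11322 (both -0.76) just outside. At the aly limit CG9992 (-1.52) and CG3085 (-1.53) were inside and CG34283 (-1.41) and CG44838 (-1.39) outside. At the magn limit CG18266 (-0.74) and CG9380 (-0.63) were inside and CG14721 (-0.75) and CG8034 (-0.83) outside. At the WT minimum CG43085 (5.04) and CG46491 (5.37) were inside and CG32053 (4.85) and CG9500 (4.84) outside.

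The genes that met the limits changed with the scaling of the arrays. After quantile normalization 46 of the 74 remained, and after centring on the median of all tested genes 39 did. Centring on the 26 ribosomal protein genes, which moved the median of all genes by -1.39 in aly, -1.43 in sa and -1.03 in magn against WT, left 7. Those were CG34367, CG42846, CG15040, CG18788, CG1494, CG15399 and CG8051. All 7 also remained, on the values as deposited, each of the 13 times that 1 array was left out. All but CG34367 remained after quantile normalization. Under that centring the median of the 74 was -4.41 in aly, -1.57 in sa and -0.74 in magn, so the fall in aly stayed the largest while the level in sa was no longer near WT.

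**Figure D5:**
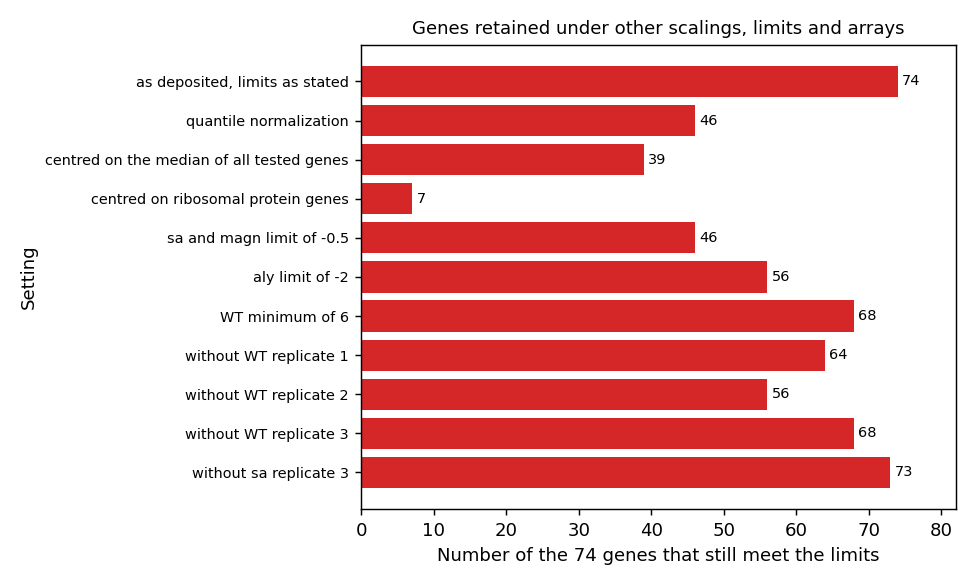
Number of the 74 genes that still met the limits (x axis) under other scalings, limits and sets of arrays (y axis). Centring on ribosomal protein genes leaves 7, quantile normalization 46 and leaving out WT replicate 2 leaves 56.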

How the data were processed

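The authors deposited log2 probe set values of 13 arrays, made with GCRMA per the submitters' processing notes. Its version and settings are not given in the sources used here. Genes were named through the platform's table for probe sets with exactly 1 gene symbol (13647 of 18952, with 402 of several genes left out), and a gene was read from its brightest probe set by mean over 13 arrays. The RefSeq gene table gave synonyms, arms and spans only. Genes above 4 in at least 3 arrays (8719, all 74 among them) were fitted with limma 3.58.1 in R 4.3.3 (lmFit, eBayes with an intensity trend, groups aly, sa, magn and WT, or 5 groups for the magn combinations). P-values were adjusted by Benjamini-Hochberg over all tested genes, and a call needed an adjusted p under 0.05 and at least 2-fold. The limma steps were tested on simulated data. Summed levels are log2 of summed linear values over a list. Folds of genes with all aly arrays at or below 4 are bounds against 4, and where only some arrays were, those values were raised to 4. The number of arrays limits the precision.

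The members and lists were chosen with earlier results of these data known. Genes named are the 8 lowest in aly, the 6 highest in WT, the 4 highest in sa and in magn, up to 4 called in each direction in each tested comparison, those next to a limit, those with differing probe sets, those with a product name and those within 10 kb of another member. Further members named where a count of 5 or fewer or a single array decided a value were chosen after their values were seen. Lists for spermatogonia, cyst and hub cells, fat body and hemocytes were also read against WT. Of 7 spermatogonial genes 6 were called higher in aly, 5 in sa and 5 in magn. Of 4 cyst and hub genes none was called in sa or magn. Of 12 sheath muscle genes 3 were called lower in sa, and 5 higher and 2 lower in magn. Of 5 fat body genes 3 were called lower in sa, and 2 lower and 1 higher in magn. Of 8 hemocyte genes 4 were called higher in sa and 5 in magn, and 1 lower in each. Over 23 pairs of arrays with the same replicate number, the r of deviations from the genotype mean ran from -0.27 to 0.24. It exceeded 0.1 in 7 and was negative in 11. Pairs with different numbers were not read beside them, so these values cannot show whether the numbers mark batches. The main fits did not use the numbers as pairs. Alternatives covered scaling, the limits, the fold minimum, the filter, array weights, the trend of variance, the choice of probe set, fits of only the compared groups, each magn combination alone, a replicate block and leaving out each array. Figures were made with Python 3.11.15 and matplotlib 3.10.9. Promoter motifs and proteins were not analysed here.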

Additional observations from a re-analysis of the deposited data

Results flagged for a closer look

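Among the 4 magn arrays, 1 array stood apart from the other 3 in 3 of the 74 genes. CG5062 read 11.08 in replicate 2 of magn[12c]/magn[23b] and 10.22 to 10.29 in the others. CG6357 read 10.67 in the same array and 11.72 to 11.80 in the others. CG9992 read 12.37 in replicate 2 of magn[12c]/magn[12c];pSC2 and 12.66 to 12.71 in the others. The flag was Dixon's ratio, with the 4 arrays taken as 1 group. Chance sets an array apart in this way in about 1 in 20 groups of like arrays. These arrays join a pair of allele combinations, so that rate may not hold here.

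The change against WT differed between the magn combinations in 4 genes, tested as the difference between the combinations with limma. It was 3.988 higher in magn[12c]/magn[12c];pSC2 for CG17472. It was lower there for CG13203 (-2.038), CG34367 (-1.859) and CG31663 (-1.042).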

How the results depend on the processing

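The number of genes that met the limits was 74. It became 26 with ribosomal protein centring (7 of the 74), 47 with centring on all genes (39 of the 74) and 46 with sa and magn limits of -0.5, and ran from 70 to 80 when 1 array was left out. In 45 of the 74 genes no left-out array ended membership. With magn read from magn[12c]/magn[23b] alone 73 of the 74 met the limits, and from magn[12c]/magn[12c];pSC2 alone 68. The median change of the 74 in aly, -3.02, became -2.79 after quantile normalization, -4.41 and -3.29 with the centrings on ribosomal and all genes, and -2.82 with values raised to 4, with -3.14 to -2.85 when 1 array was left out. In sa the median was -0.14, and -0.40, -1.57 and -0.57 under the same 3 scalings. In magn it was 0.28, and -0.74 and -0.081 with the centrings. With ribosomal centring magn minus sa was 0.92 and the combinations differed by -0.52.

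Between magn and sa 3295 genes were called, 5170 without a fold minimum and 1082 at 4-fold, and 2950 to 3450 when 1 array was left out. Of the 74, 19 were called, 33 without a fold minimum, 2 at 4-fold, 31 with ribosomal centring, and 12 (without sa replicate 3) to 23 when 1 array was left out. Between the combinations 879 genes were called, 1431 without a fold minimum and 261 at 4-fold, and 469 (without magn[12c]/magn[12c];pSC2 replicate 2) to 997 when 1 array was left out. Of the 74, 4 were called, 2 at 4-fold, 7 after quantile normalization, and 0 to 6 when 1 array was left out. CG17472 lost its call without the filter (adjusted p = 0.0781, limma). CG42258, 0.07 higher in magn than in sa, was 1.75 lower (log2 difference -1.75, adjusted p = 0.00103, limma) through its probe set of highest variance. The causes of these changes were not tested. With the replicate block, magn and sa differed in 3131 genes and 18 of the 74 (17 higher, 1 lower), and the combinations in 839 genes and 3 of the 74. Whether the numbers pair the arrays is not known.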

Other observations

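Of the genes with a name, 103 of 4271 with a WT mean of at least 5 met the same limits (2.41%), beside 74 of 3085 genes with a CG number (2.40%), and the difference was not tested. The genes named here were chosen after their values were seen. They included twe and CycB, and also spag4, known for the spermatid centriole, which read 6.70 in WT, 2.10 in aly, 7.13 in sa and 8.81 in magn. The translation initiation factor gene eIF4G2 read 13.10 in WT, 10.76 in aly, 12.95 in sa and 13.40 in magn. The mitochondrial import gene Tim17b1 read 12.64, 8.90, 12.75 and 12.81. Among the 103 were 10 of the 18 accessory gland and male duct genes, a tissue that the dissection removed. The summed level of the 18 was 17.99 in WT replicate 2 and 15.80 and 15.06 in the other WT arrays. It was 17.38 and 17.33 in magn[12c]/magn[12c];pSC2 and 14.54 and 14.53 in magn[12c]/magn[23b]. The part of these arrays in the means of the 10 was not tested.

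Of 4720 probe sets without a gene name, 630 had a WT mean of at least 5, and 17 of these met the same limits. The highest of the 17 had a WT mean of 13.90.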
